A study of Mus musculus with 20 samples.

Results

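RNA of antigen-specific CD4 T cells with a history of T-bet expression (Tomato+) was compared with that of cells without one (Tomato-) in all 8 lymph node RNA libraries of a series of 20 libraries, 4 in each Tomato state. Each Tomato state was represented by 2 libraries of CXCR5high PD1high cells, labelled Tfh, and 2 libraries of CXCR5low PD1low cells, labelled non-Tfh. All cells came from mice with the genotype T-bet-Cre and Rosa26-loxP-STOP-loxP-tdTomato on the C57BL/6 background, so both Tomato states carried the same alleles. The mice had been immunized with the antigen AS15 in CFA (complete Freund's adjuvant), and the draining lymph nodes were taken on day 16. Cells that bound the AS15 tetramer were sorted, so all groups share an antigen specificity. The libraries could be compared in a single additive model, in which the sort (Tfh or non-Tfh) was a covariate and the Tomato difference was taken as common to both sorts. That model asks which transcripts go with a history of T-bet expression whichever sort a cell fell into. Tomato marks present as well as past expression, so the Tomato+ libraries can hold cells that expressed T-bet at the time of sorting. No label says that the replicates were separate mice, so p-values measure the spread between these libraries, which may be technical.

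T-bet, encoded by Tbx21, is the transcription factor that directs CD4 T cells towards the T helper 1 (Th1) fate, in which cells make interferon gamma and enter inflamed tissue. T follicular helper (Tfh) cells, which help B cells in germinal centres, depend on another factor, Bcl6, yet some of them express T-bet for part of their history. Cre recombinase placed under T-bet control, together with a tdTomato reporter behind a loxP-flanked stop, marks a cell and its descendants permanently once Cre has acted.

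Counts summed over all transcript rows were 18177603 to 27604758 per library, and 11155 to 11806 genes had reads. Some genes have more than 1 row, so a read may enter such a sum more than once. Pearson correlations of log2 normalised counts were 0.76 to 0.81 between replicates and 0.72 to 0.79 between libraries of different groups, and these ranges overlapped. The common biological coefficient of variation in the additive fit was 0.948. All 13 markers of CD4 T cell identity had reads in all 8 libraries, and their summed level was 4517 to 5454 RPKM in the Tomato+ libraries and 4550.4 to 5114 RPKM in the Tomato- libraries. RPKM is the authors' read count scaled for transcript length and library size. B cell markers summed to 113 to 163 RPKM in the Tomato+ libraries and 119 to 157 RPKM in the Tomato- libraries, overlapping between the Tomato states, and the B cell receptor subunit gene Cd79a had 28.4 to 50.3 RPKM in the Tomato+ libraries and 32.999 to 61.8 RPKM in the Tomato- libraries. Sums of 3 lists did not overlap and were lower in Tomato+ cells: macrophage and monocyte markers (246 to 653 RPKM in the Tomato+ libraries and 1192 to 1771 RPKM in the Tomato- libraries), dendritic cell markers (4.57 to 9.71 RPKM in the Tomato+ libraries and 12.3 to 45.8 RPKM in the Tomato- libraries) and major histocompatibility complex (MHC) class II genes (774 to 1308 RPKM in the Tomato+ libraries and 2109 to 4047 RPKM in the Tomato- libraries). In bulk RNA, fewer cells of a type and less RNA per cell cannot be told apart.

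Of 11746 genes tested, 50 (0.426%) passed an adjusted p of 0.05 in the additive model, by edgeR's quasi-likelihood test with Benjamini-Hochberg adjustment over all genes. Higher levels in Tomato+ cells were called for 39 genes (0.332%) and lower levels for 11 genes (0.0936%). The rising genes encode the cytotoxic granule protein Nkg7, the receptor chain Ifngr1, the chemokine receptors Cxcr6, Cxcr3 and Ccr2, killer lectin-like receptors, and a large group of cytoskeletal, S100, annexin and galectin proteins. The falling genes were mostly MHC class II and myeloid transcripts. At an unadjusted p under 0.05, 1114 genes (9.48%) passed. The median log2 fold change of all genes tested was 0.0042, and log2 fold changes throughout are Tomato+ minus Tomato-. DESeq2 on the same counts called 521 genes (4.44%), 284 higher and 237 lower, a share of rises of 54.5% beside 78% in the edgeR fit; all 50 edgeR calls were among them.

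Within each sort, the replicates of the 39 rising and 11 falling genes did not overlap between Tomato states, in the Tfh sort and in the non-Tfh sort alike. All 50 had the same sign in both sorts, as did 54.6% of all genes tested. Of all genes tested, 638 (5.43%) were higher without overlap in both sorts and 497 (4.23%) lower. Across sorts, the 4 Tomato+ libraries stood above the 4 Tomato- libraries without overlap for 30 of the 39 rising genes, against 3.11% of all genes tested, and below them for 11 of the 11 falling genes, against 2.23%. These counts restate the data that gave the calls and are no separate evidence. The median log2 fold change of the 39 rising genes was 1.91 in Tfh cells and 2.0 in non-Tfh cells. For the 11 falling genes it was -1.67 in Tfh cells and -2.44 in non-Tfh cells, and each of the 11 had its more negative value in the non-Tfh sort. Fitted alone from the model with a mean for each group, the Tfh contrast called 13 genes (0.111%) and the non-Tfh contrast 39 (0.332%). Of the 50 common calls, 11 were called in the Tfh contrast, 26 in the non-Tfh contrast and 10 in both, so 23 were called only when both sorts were fitted together. Across all genes tested, the Tfh and non-Tfh log2 fold changes, which share no library, had a Pearson correlation of 0.176; genes are not independent replicates.

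**Figure D1:**
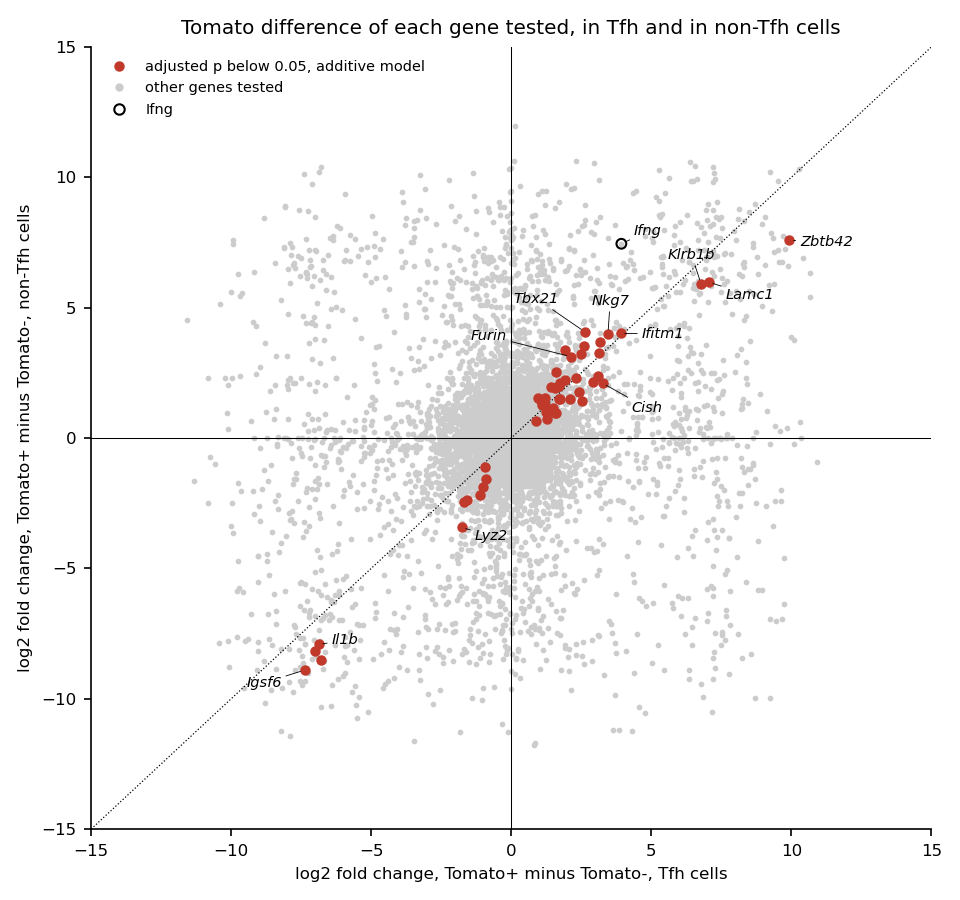
Log2 fold change of each of the 11746 genes tested (Tomato+ minus Tomato-), in Tfh cells on the horizontal axis and in non-Tfh cells on the vertical axis. Red points are the 50 genes called in the additive model, all in the upper right or lower left quadrant, grey points are the other genes, the open circle is Ifng and the dotted line marks equal changes.

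Tbx21 checks the sort and is no independent result, since T-bet drives the Cre. It stood at 106 and 52.95 RPKM in Tomato+ Tfh and 183 and 163 in Tomato+ non-Tfh cells, against 12.8 and 12.9 in Tomato- Tfh and 10.4 and 10.5 in Tomato- non-Tfh cells. Every Tomato+ library lay above every Tomato- library, with Tomato+ Tfh cells between the Tomato- cells and the Tomato+ non-Tfh cells (log2 fold change 3.35 ± 0.36 (SE), adjusted p = 0.00425). The level was about 6.16-fold higher in Tfh and 16.9-fold higher in non-Tfh cells by the fitted contrasts. Of the 12 Th1 regulators tested, 3 rose and none fell, with a median log2 fold change of 0.51. Besides Tbx21 these were Bhlhe40, a basic helix-loop-helix factor required in mouse helper T cells for cytokine output, and Id2, an antagonist of E proteins. Bhlhe40 stood at 420.3 and 419 RPKM in Tomato+ Tfh and 768 and 627 in Tomato+ non-Tfh cells, against 226 and 205 in Tomato- Tfh and 228 and 259 in Tomato- non-Tfh cells. Bhlhe40 was higher in each Tomato+ library than in any Tomato- library, and the log2 fold change was 1.24 ± 0.15 (SE, adjusted p = 0.00644). Id2 stood at 235 and 218 RPKM in Tomato+ Tfh and 432 and 396 in Tomato+ non-Tfh cells, against 91.6 and 98.5 in Tomato- Tfh and 240.5 and 184 in Tomato- non-Tfh cells. Id2 was separate within each sort and overlapped across sorts, with a log2 fold change of 1.12 ± 0.14 (SE, adjusted p = 0.00812). Tomato+ Tfh cells reached only the Id2 level of Tomato- non-Tfh cells.

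Ifng, the cytokine gene that T-bet is best known for, missed the threshold in the additive edgeR fit and passed with DESeq2 and with limma on log2(RPKM + 1) and log2(RPKM + 0.1). It stood at 87.2 and 91.3 RPKM in Tomato+ Tfh and 240.3 and 296 in Tomato+ non-Tfh cells, against 10.5 and 1.03 in Tomato- Tfh and 1.30 and 1.83 in Tomato- non-Tfh cells. Every Tomato+ library lay above every Tomato- library, while one Tomato- Tfh library stood about 10 times above the other (log2 fold change 5.63 ± 0.98 (SE), adjusted p = 0.0572). The summed reads were 21772 in the 4 Tomato+ and 481 in the 4 Tomato- libraries. Without Tomato- Tfh replicate 1 the log2 fold change was 7.04 and the adjusted p 0.000121, and without Tomato+ Tfh replicate 1 the adjusted p was 0.042. Leaving out any of the other 6 libraries left it uncalled, and over all 8 such fits the adjusted p ran from 0.000121 to 0.138. By edgeR none of the 12 effector cytokine and tumour necrosis factor family ligand genes tested passed; 4 had an unadjusted p under 0.05, 11 a positive log2 fold change, and the median was 1.05. DESeq2 called 4 of the 12 higher (Ifng, Tnf, Csf2 and Fasl), and both limma fits called Ifng, Csf2 and Fasl. Csf2, the gene of the myeloid growth factor GM-CSF, was at 38.5 and 19.4 RPKM in Tomato+ Tfh and 66.6 and 47.4 in Tomato+ non-Tfh cells, against 4.71 and 0.490 in Tomato- Tfh and 0.199 and 0.357 in Tomato- non-Tfh cells. Levels of Csf2 did not overlap between Tomato states, with a log2 fold change of 5.45 ± 1.22 (SE, adjusted p = 0.157). Fasl, the death receptor ligand gene, ranged over 44.9 to 155 RPKM in the Tomato+ libraries and 7.17 to 58.001 RPKM in the Tomato- libraries (log2 fold change 2.09 ± 0.40 (SE), adjusted p = 0.0927). Fasl was separate within each sort and overlapped across sorts. By edgeR, Csf2 passed without Tomato- Tfh replicate 1 (adjusted p = 0.0077) and Fasl without Tomato+ Tfh replicate 1 (adjusted p = 0.0467), each in that 1 of 8 fits. Among 5 chemokine ligand genes none passed by edgeR, 2 had an unadjusted p under 0.05 and the median was 3.02. DESeq2 called Ccl5 and Ccl1 higher, limma on log2(RPKM + 1) called these and Xcl1, and limma on log2(RPKM + 0.1) called Ccl1. Ccl5 had 186 and 152 RPKM in Tomato+ Tfh and 292 and 284 in Tomato+ non-Tfh cells, against 37.1 and 47.5 in Tomato- Tfh and 33.02 and 2.58 in Tomato- non-Tfh cells (log2 fold change 3.02 ± 0.74 (SE), adjusted p = 0.203). Ccl5 was higher in each Tomato+ library than in any Tomato- library, but the Tomato- non-Tfh replicates differed by more than 10-fold, and it passed without replicate 2 of them (adjusted p = 0.0161). Ccl1 had a log2 fold change of 7.19 ± 1.58, adjusted p = 0.143.

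**Figure D2:**
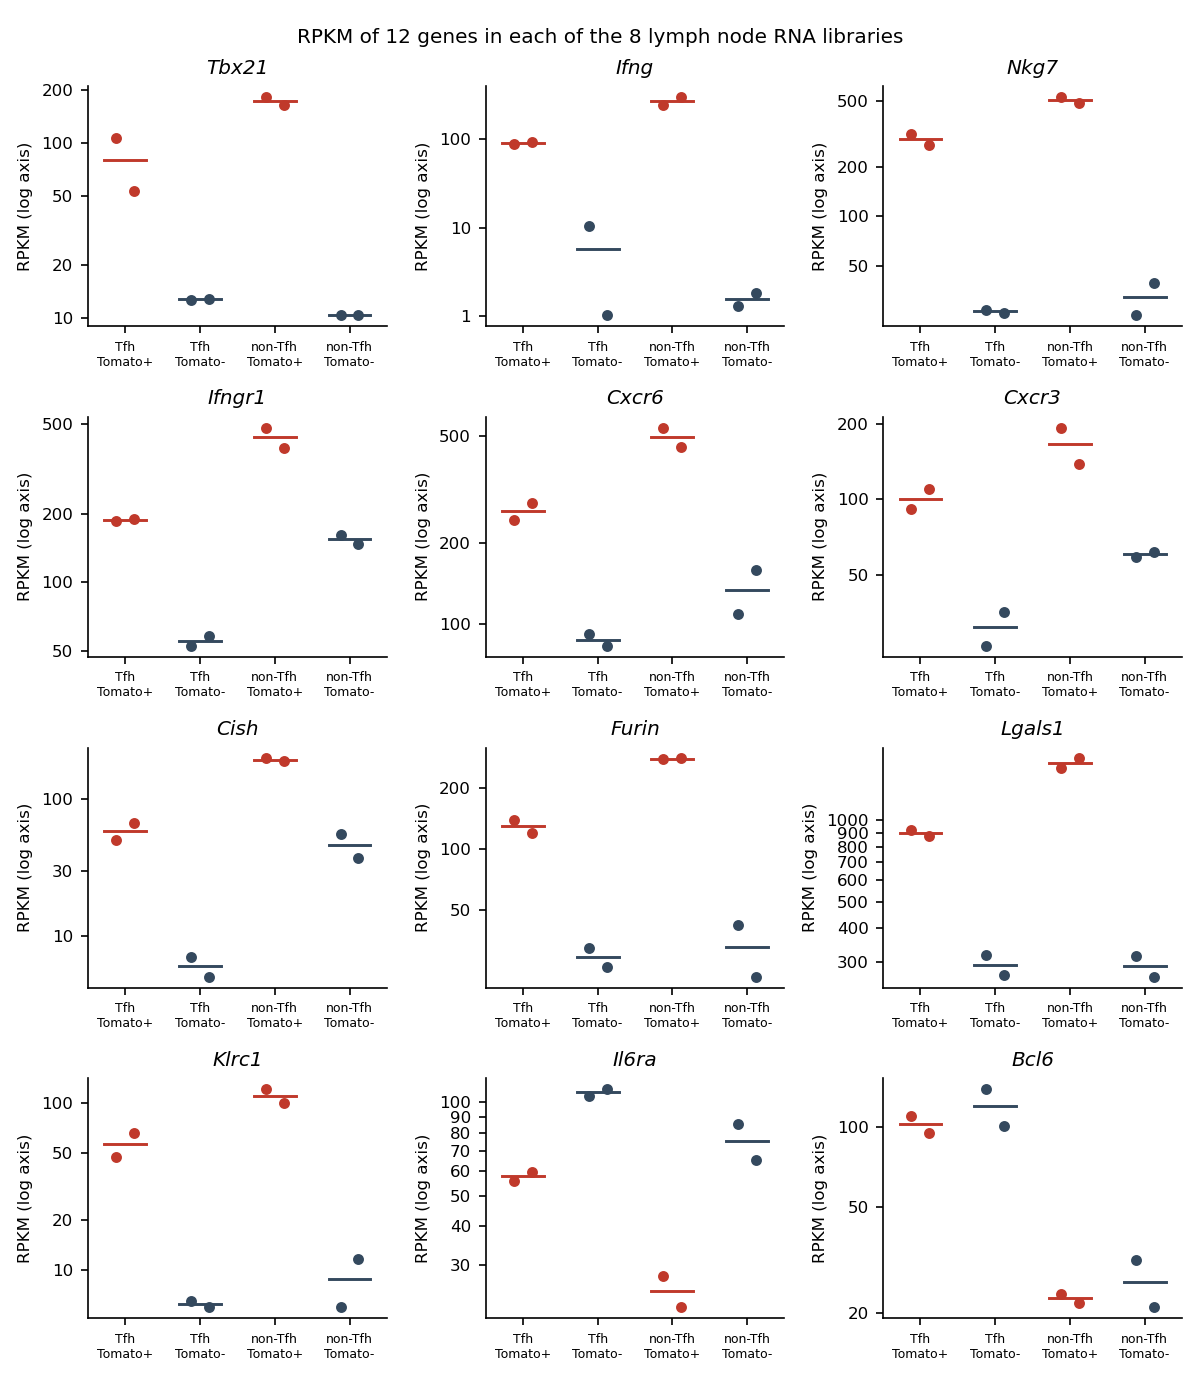
RPKM of 12 genes (log axes that differ between panels) in each library, by sort and Tomato state; points are libraries and lines the mean of 2 replicates, red for Tomato+ and dark blue for Tomato-. Tomato+ libraries lie above Tomato- libraries of the same sort for Tbx21, Ifng and the 8 called genes from Nkg7 to Klrc1 and below them for Il6ra, while Bcl6 overlaps within both sorts.

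Nkg7, which encodes a granule membrane protein of cytotoxic lymphocytes, had the smallest adjusted p of all genes. It stood at 317 and 269 RPKM in Tomato+ Tfh and 529 and 486 in Tomato+ non-Tfh cells, against 26.99 and 25.96 in Tomato- Tfh and 25.1 and 39.4 in Tomato- non-Tfh cells. The lowest Tomato+ library was several times the highest Tomato- library, and the Tomato- libraries of the 2 sorts overlapped (log2 fold change 3.73 ± 0.22 (SE), adjusted p = 0.000406). Of the 10 cytotoxic granule genes tested, 2 rose, 0 fell and all had a positive log2 fold change, with a median of 2.98. The other called member was Serpinb9, an inhibitor of granzyme B that protects cytotoxic cells from their own granules. Serpinb9 stood at 27.2 and 36.2 RPKM in Tomato+ Tfh and 55.4 and 40.4 in Tomato+ non-Tfh cells, against 5.69 and 1.41 in Tomato- Tfh and 4.10 and 6.05 in Tomato- non-Tfh cells. Serpinb9 was higher in each Tomato+ library than in any Tomato- library, and the log2 fold change was 3.20 ± 0.43 (SE, adjusted p = 0.0114).

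T-box factors such as T-bet bind DNA at variants of a short motif, and the letters GGTGTGA, or their reverse complement TCACACC, were searched on both strands of RefSeq promoter windows, which run from 250 bases before to 50 bases after each annotated start. Of the 39 rising genes 32 had a window and 2 of these (6.25%) held the letters, Nkg7 and Cd47, as did 375 of 9295 genes tested with a window (4.03%). None of the 9 falling genes with a window held them. The windows of Tbx21, Ifng and Cxcr3 did not. Both promoters that hold the letters are shown because both genes rose in the additive model. Each is the 120 bases before the start site, 5′ to 3′ on the plus strand of GRCm38.p6 from RefSeq, with the searched letters in capitals. The Nkg7 stretch is chr7:43437018-43437137 and its letters begin 13 bases before the start. The Cd47 stretch is chr16:49855534-49855653 and its letters begin 92 bases before the start.
Nkg7 promoter: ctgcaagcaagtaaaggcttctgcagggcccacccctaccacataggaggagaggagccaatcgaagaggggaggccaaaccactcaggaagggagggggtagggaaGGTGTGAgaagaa
Cd47 promoter: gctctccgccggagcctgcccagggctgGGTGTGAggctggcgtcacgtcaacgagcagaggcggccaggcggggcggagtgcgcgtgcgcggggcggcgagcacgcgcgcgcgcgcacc
A match is a description of these windows and not a measured binding site.

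Killer lectin-like receptors are surface receptors of natural killer (NK) cells and cytotoxic T cells. Of 8 tested, 3 rose, 0 fell and all 8 had a positive log2 fold change, with a median of 4.35. Klrc1, which encodes the inhibitory chain NKG2A, stood at 47.9 and 66.6 RPKM in Tomato+ Tfh and 122 and 100.5 in Tomato+ non-Tfh cells, against 6.47 and 5.99 in Tomato- Tfh and 5.94 and 11.6 in Tomato- non-Tfh cells. Klrc1 was thus separate in all 8 libraries, by a log2 fold change of 3.43 ± 0.40 (SE, adjusted p = 0.00637). Klrk1, which encodes the activating receptor NKG2D, stood at 28.8 and 17.98 RPKM in Tomato+ Tfh and 37.8 and 35.2 in Tomato+ non-Tfh cells, against 2.50 and 5.17 in Tomato- Tfh and 2.68 and 3.76 in Tomato- non-Tfh cells. Levels of Klrk1 did not overlap between Tomato states, with a log2 fold change of 3.06 ± 0.38 (SE, adjusted p = 0.00808). Klrb1b, an inhibitory member of the Klrb1 group, stood at 18.8 and 24.8 RPKM in Tomato+ Tfh and 47.05 and 30.5 in Tomato+ non-Tfh cells, against 0.0929 and 0.299 in Tomato- Tfh and 1.08 and 0.214 in Tomato- non-Tfh cells. Klrb1b was higher in each Tomato+ library than in any Tomato- library, and the log2 fold change was 6.33 ± 0.69 (SE, adjusted p = 0.00425). All 3 were low in the 4 Tomato- libraries and high in the 4 Tomato+ libraries. These genes lie in a family of related sequences, and no source at hand says how the authors counted reads shared between copies, so the split between members is uncertain. Of 6 markers of NK and innate-like T cells, none had reads in all 8 libraries, 5 were tested and none passed by edgeR, with 2 at an unadjusted p under 0.05 and a median of 5.62. DESeq2 called Ncr1 and Klri2 higher, and limma, which tested 2 of the 5, called none. Their summed level was 3.70 to 11.7 RPKM in the Tomato+ libraries and 0.0467 to 0.299 RPKM in the Tomato- libraries. The part of such cells in the lectin receptor and granule results was not tested.

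Inflammatory chemokine receptors guide effector T cells into tissue. Of 8 tested, 3 rose and none fell, with a median of 1.66. Cxcr6, the receptor for the membrane-bound chemokine Cxcl16, stood at 244 and 281 RPKM in Tomato+ Tfh and 536 and 455 in Tomato+ non-Tfh cells, against 92.1 and 83.3 in Tomato- Tfh and 109.6 and 159 in Tomato- non-Tfh cells. Cxcr6 was thus separate in all 8 libraries, by a log2 fold change of 1.73 ± 0.16 (SE, adjusted p = 0.00292). Cxcr3, the receptor for interferon-induced chemokines, stood at 91.2 and 109.6 RPKM in Tomato+ Tfh and 193 and 138 in Tomato+ non-Tfh cells, against 26.1 and 35.6 in Tomato- Tfh and 58.9 and 61.7 in Tomato- non-Tfh cells. Levels of Cxcr3 did not overlap between Tomato states, with a log2 fold change of 1.58 ± 0.19 (SE, adjusted p = 0.00665). Ccr2, a receptor for monocyte chemoattractants, ranged over 29.5 to 103 RPKM in the Tomato+ libraries and 3.91 to 31.9 RPKM in the Tomato- libraries (log2 fold change 2.09 ± 0.34 (SE), adjusted p = 0.037); it overlapped across sorts and was called in 3 of the 8 fits that left out 1 library (adjusted p 0.022 to 0.11).

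Among 15 cytokine receptor genes 1 rose and 1 fell, with a median of 0.44. Ifngr1, the ligand-binding chain of the interferon gamma receptor, stood at 186 and 191 RPKM in Tomato+ Tfh and 479.7 and 391 in Tomato+ non-Tfh cells, against 52.6 and 57.98 in Tomato- Tfh and 162 and 148 in Tomato- non-Tfh cells. Ifngr1 was higher in each Tomato+ library than in any Tomato- library, and the log2 fold change was 1.63 ± 0.13 (SE, adjusted p = 0.00177). The log2 fold change was close in size in both sorts (1.76 in Tfh and 1.51 in non-Tfh cells), and Tomato+ Tfh cells stood just above Tomato- non-Tfh cells. Il6ra, the receptor chain for interleukin 6 found on naive and follicular T cells and on myeloid cells, stood at 55.9 and 59.9 RPKM in Tomato+ Tfh and 27.8 and 21.98 in Tomato+ non-Tfh cells, against 105 and 110.2 in Tomato- Tfh and 85.3 and 65.5 in Tomato- non-Tfh cells. Il6ra was thus separate in all 8 libraries, by a log2 fold change of -1.24 ± 0.19 (SE, adjusted p = 0.0231). Il6ra was lowest in Tomato+ non-Tfh cells. Its call was lost in 3 of 8 fits with 1 library left out, those without either Tomato+ non-Tfh library or Tomato- non-Tfh replicate 1 (adjusted p 0.0328 to 0.0786 over the 8 fits). Il18rap, the accessory chain of the interleukin 18 receptor, missed the threshold in edgeR and passed with DESeq2 and both limma fits, at 35.4 and 27.1 RPKM in Tomato+ Tfh and 56.8 and 53.9 in Tomato+ non-Tfh cells, against 0.662 and 0.298 in Tomato- Tfh and 3.14 and 11.3 in Tomato- non-Tfh cells. Levels of Il18rap did not overlap between Tomato states, with a log2 fold change of 4.42 ± 0.78 (SE, adjusted p = 0.0577). By edgeR, Il18rap was called without Tomato- non-Tfh replicate 2, the highest of the Tomato- libraries, with an adjusted p of 0.00446, and in none of the other 7 such fits.

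By edgeR, the effector migration and cytoskeleton genes held more called genes than any other list examined: of 22 tested, 12 rose, 0 fell and 21 had a positive log2 fold change, with a median of 1.30 beside 0.0042 for all genes. DESeq2 called 16 of the 22 higher, limma on log2(RPKM + 1) 15 and limma on log2(RPKM + 0.1) 13. List sizes differed, from 2 to 30 genes tested. Lists and members were chosen with earlier results of these data known, so this rank is no separate evidence. Selplg encodes the selectin ligand PSGL-1 and stood at 212 and 220.5 RPKM in Tomato+ Tfh and 492 and 487 in Tomato+ non-Tfh cells, against 79.4 and 71.4 in Tomato- Tfh and 230.3 and 223 in Tomato- non-Tfh cells. Selplg was separate within each sort and overlapped across sorts, with a log2 fold change of 1.32 ± 0.12 (SE, adjusted p = 0.00292). The galectin gene Lgals1 stood at 923 and 876 RPKM in Tomato+ Tfh and 1569 and 1696 in Tomato+ non-Tfh cells, against 317 and 268 in Tomato- Tfh and 316 and 264 in Tomato- non-Tfh cells. Lgals1 was thus separate in all 8 libraries, by a log2 fold change of 2.06 ± 0.20 (SE, adjusted p = 0.00292). The galectin gene Lgals3 stood at 183 and 155 RPKM in Tomato+ Tfh and 298 and 267 in Tomato+ non-Tfh cells, against 16.9 and 27.9 in Tomato- Tfh and 58.2 and 72.2 in Tomato- non-Tfh cells. Levels of Lgals3 did not overlap between Tomato states, with a log2 fold change of 2.52 ± 0.24 (SE, adjusted p = 0.00292). Lgals1 had the same low level in the Tomato- cells of both sorts while Lgals3 was higher in Tomato- non-Tfh than Tomato- Tfh cells.

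Vim, the intermediate filament protein vimentin, stood at 155 and 134 RPKM in Tomato+ Tfh and 376 and 489.6 in Tomato+ non-Tfh cells, against 37.04 and 51.7 in Tomato- Tfh and 118 and 103 in Tomato- non-Tfh cells. Vim was higher in each Tomato+ library than in any Tomato- library, and the log2 fold change was 1.85 ± 0.17 (SE, adjusted p = 0.00292). Crip1, a small LIM domain protein, was among the most abundant, at 1118 and 836 RPKM in Tomato+ Tfh and 1947 and 1606 in Tomato+ non-Tfh cells, against 210.4 and 239 in Tomato- Tfh and 618 and 656 in Tomato- non-Tfh cells. Crip1 was thus separate in all 8 libraries, by a log2 fold change of 1.81 ± 0.18 (SE, adjusted p = 0.00292). S100a4, a calcium-binding protein gene of effector and memory T cells, had 713 to 1774 RPKM in the Tomato+ libraries and 247 to 443 RPKM in the Tomato- libraries (log2 fold change 1.68 ± 0.18, adjusted p = 0.00425). S100a10, a partner of annexin A2, had 759 to 1663 RPKM in the Tomato+ libraries and 329 to 682 RPKM in the Tomato- libraries (1.37 ± 0.15, adjusted p = 0.00549). Anxa2, annexin A2, had 128 to 261 RPKM in the Tomato+ libraries and 31.5 to 71.2 RPKM in the Tomato- libraries (1.92 ± 0.23, adjusted p = 0.00744). Ahnak, a very large scaffold protein, had 15.3 to 37.2 RPKM in the Tomato+ libraries and 2.34 to 14.6 RPKM in the Tomato- libraries (1.98 ± 0.25, adjusted p = 0.00913). None of these 4 overlapped between Tomato states. The list's other rises were S100a6 (1.25 ± 0.18, adjusted p = 0.0185), Anxa6 (1.28 ± 0.19, adjusted p = 0.0231) and Emp3 (1.27 ± 0.19, adjusted p = 0.0231), in log2 units; all 3 overlapped across sorts and were called in 3, 4 and 1 of the 8 fits that left out 1 library. The highest adjusted p in those fits was 0.0812 for S100a6, 0.0729 for Anxa6 and 0.0887 for Emp3.

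**Figure D3:**
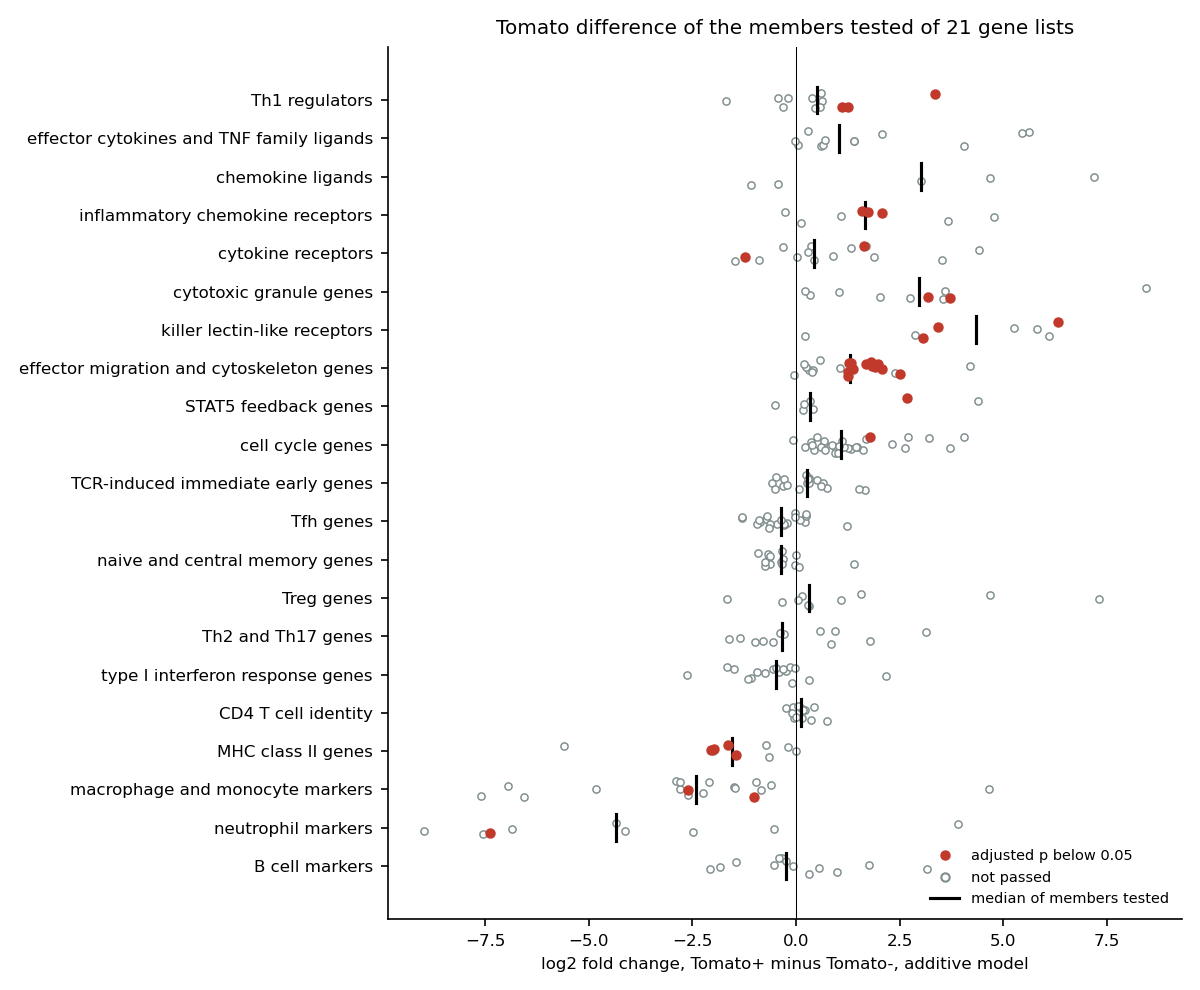
Log2 fold change (Tomato+ minus Tomato-, additive model) of the members tested of 21 gene and marker lists, 1 point a gene; red points passed the adjusted p of 0.05 and the black bar is the list's median. Effector migration genes hold 12 called rises and MHC class II genes 4 called falls, and Tfh genes have none of either in this edgeR fit.

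By edgeR a single gene rose in the STAT5 and in the TGF-beta list. Of 7 STAT5 feedback genes, Cish rose alone by edgeR and the median was 0.33. DESeq2 also called Socs2 higher, and both limma fits called Cish alone. Cish, a suppressor of cytokine signalling that STAT5 induces, stood at 50.2 and 66.7 RPKM in Tomato+ Tfh and 199.9 and 190.4 in Tomato+ non-Tfh cells, against 7.003 and 5.01 in Tomato- Tfh and 55.3 and 37.4 in Tomato- non-Tfh cells. Cish was separate within each sort and overlapped across sorts, with a log2 fold change of 2.68 ± 0.29 (SE, adjusted p = 0.00425). Tomato+ Tfh cells and Tomato- non-Tfh cells had close levels, with Tomato- Tfh cells far below and Tomato+ non-Tfh cells far above. Of 8 TGF-beta pathway genes, Furin rose alone and the median was 0.0061. Furin, the convertase that processes the TGF-beta precursor and many other proproteins, stood at 139.5 and 120.2 RPKM in Tomato+ Tfh and 278 and 279 in Tomato+ non-Tfh cells, against 32.6 and 26.2 in Tomato- Tfh and 42.04 and 23.5 in Tomato- non-Tfh cells. Furin was higher in each Tomato+ library than in any Tomato- library, and the log2 fold change was 2.63 ± 0.26 (SE, adjusted p = 0.00292). The Tomato- libraries of both sorts were low, and every Tomato+ library was several times higher than the Tomato- libraries of its sort. By edgeR none of 18 immediate early genes induced by the T cell receptor passed, with 9 at an unadjusted p under 0.05 and a median of 0.28. DESeq2 called Cd69 and Dusp2 higher and Fos, Junb and Dusp1 lower; limma called Dusp2 higher with either pseudocount and Fos lower with that of 1. Dusp2, a nuclear phosphatase of MAP kinases, was the closest, at 169 and 248 RPKM in Tomato+ Tfh and 483 and 692 in Tomato+ non-Tfh cells, against 99.9 and 129.7 in Tomato- Tfh and 121 and 141 in Tomato- non-Tfh cells. Dusp2 was thus separate in all 8 libraries, by a log2 fold change of 1.52 ± 0.30 (SE, adjusted p = 0.101). Dusp2 passed in edgeR without Tomato+ Tfh replicate 1 or Tomato- Tfh replicate 2 (lowest adjusted p 0.0265).

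Of 30 cell cycle genes tested, 29 had a positive log2 fold change, the median was 1.08 and 1 passed by edgeR. That gene was Rrm2, a subunit of ribonucleotide reductase, at 50.5 and 63.9 RPKM in Tomato+ Tfh and 22.5 and 45.6 in Tomato+ non-Tfh cells, against 16.5 and 19.9 in Tomato- Tfh and 8.78 and 9.18 in Tomato- non-Tfh cells. DESeq2 called Rrm2, Cdk1, Mcm5, Kif11 and Nusap1 higher, and both limma fits called Rrm2 alone. Levels of Rrm2 did not overlap between Tomato states, with a log2 fold change of 1.80 ± 0.29 (SE, adjusted p = 0.037 by edgeR). Rrm2 was called in 1 of 8 fits with 1 library left out, the one without Tomato+ non-Tfh replicate 1, and the adjusted p reached 0.147 in the others.

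Matched by symbol, 14 of the 50 called genes belong to none of the lists. Among them is 2010001M09Rik, an older symbol of Mzb1, which is on the plasma cell list. Zbtb42, a zinc finger protein of the BTB family, had the largest rise at 7.43 and 5.61 RPKM in Tomato+ Tfh and 8.52 and 10.0001 in Tomato+ non-Tfh cells, against 0.00984 and 0 in Tomato- Tfh and 0.0355 and 0.0606 in Tomato- non-Tfh cells. Zbtb42 was higher in each Tomato+ library than in any Tomato- library, and the log2 fold change was 8.53 ± 1.05 (SE, adjusted p = 0.00798). Only 8 reads in 4 Tomato- libraries stood against 2780 reads in 4 Tomato+ libraries, so the size of the fold is imprecise and the absolute level in Tomato+ cells was modest. Ifitm1, an interferon-induced membrane protein, stood at 195 and 115 RPKM in Tomato+ Tfh and 236 and 269 in Tomato+ non-Tfh cells, against 6.43 and 14.2 in Tomato- Tfh and 20.6 and 11.5 in Tomato- non-Tfh cells. Ifitm1 was thus separate in all 8 libraries, by a log2 fold change of 3.96 ± 0.36 (SE, adjusted p = 0.00292). Its log2 fold change was nearly equal in both sorts, 3.90 in Tfh and 4.01 in non-Tfh cells. Ltb4r1, a leukotriene B4 receptor, stood at 38.6 and 31.2 RPKM in Tomato+ Tfh and 97.1 and 74.96 in Tomato+ non-Tfh cells, against 4.72 and 7.67 in Tomato- Tfh and 7.36 and 11.5 in Tomato- non-Tfh cells. Levels of Ltb4r1 did not overlap between Tomato states, with a log2 fold change of 2.85 ± 0.35 (SE, adjusted p = 0.00744). Serpina3g, an intracellular serine protease inhibitor, had 36.7 to 70.6 RPKM in the Tomato+ libraries and 5.79 to 12.7 RPKM in the Tomato- libraries (log2 fold change 2.64 ± 0.38 (SE), adjusted p = 0.0174); it was called in 4 of 8 fits with 1 library left out, and the calls without each of the 4 non-Tfh libraries were lost (highest adjusted p 0.0604). Serpina3g did not overlap between Tomato states.

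Genes named here only after their values were seen complete the rises. Cd47, which shields cells from phagocytosis, stood at 155 and 146 RPKM in Tomato+ Tfh and 249 and 268 in Tomato+ non-Tfh cells, against 75.3 and 64.3 in Tomato- Tfh and 104 and 117 in Tomato- non-Tfh cells. Cd47 was higher in each Tomato+ library than in any Tomato- library, and the log2 fold change was 1.18 ± 0.14 (SE, adjusted p = 0.00637). Glipr2 had 81.5 to 171 RPKM in the Tomato+ libraries and 14.04 to 40.7 RPKM in the Tomato- libraries (log2 fold change 2.07 ± 0.28 (SE), adjusted p = 0.0113). Glipr2 was also separate across all 8 libraries, and both genes were called in all 8 fits that left out 1 library. Lamc1, a laminin chain, had 2.35 to 6.14 RPKM in the Tomato+ libraries and 0.0276 to 0.108 RPKM in the Tomato- libraries (log2 fold change 6.51 ± 0.84 (SE), adjusted p = 0.00928), with 3281 reads in the Tomato+ and 37 in the Tomato- libraries. The call for Lamc1 was lost without Tomato+ non-Tfh replicate 1 (adjusted p = 0.0518). AW112010 (log2 fold change 1.23 ± 0.18, adjusted p = 0.0225), Dusp5, a phosphatase of ERK kinases (1.01 ± 0.15, adjusted p = 0.0245), and Ms4a4b (0.78 ± 0.13, adjusted p = 0.0437) were called in 4, 1 and 0 of those 8 fits. Ms4a4b was the only called gene under a 2-fold change. 2010001M09Rik, which RefSeq lists as an older symbol of Mzb1, a gene of an endoplasmic reticulum protein of B and plasma cells, had 46.9 to 122 RPKM in the Tomato+ libraries and 8.01 to 20.9 RPKM in the Tomato- libraries (log2 fold change 2.74 ± 0.43 (SE), adjusted p = 0.0305). 5830411N06Rik, for which RefSeq gives the synonym Scart2, had 13.2 to 43.96 RPKM in the Tomato+ libraries and 1.95 to 8.26 RPKM in the Tomato- libraries (log2 fold change 2.31 ± 0.36 (SE), adjusted p = 0.0271). Neither overlapped between Tomato states, and they were called in 2 and 3 of the 8 fits that left out 1 library.

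Of 21 Tfh genes tested none passed by edgeR, with 9 at an unadjusted p under 0.05; 5 had a positive and 16 a negative log2 fold change, and the median was -0.35. DESeq2 called 5 of them lower (Tox, Btla, Sostdc1, Id3 and Folr4) and none higher, limma on log2(RPKM + 1) called Id3 lower, and limma on log2(RPKM + 0.1) called none. Bcl6, the factor that defines Tfh cells, stood at 110.3 and 95.2 RPKM in Tomato+ Tfh and 23.7 and 21.9 in Tomato+ non-Tfh cells, against 139 and 101 in Tomato- Tfh and 31.6 and 21.1 in Tomato- non-Tfh cells. Bcl6 overlapped between Tomato states, with a log2 fold change of -0.21 ± 0.18 (SE, adjusted p = 0.873). Its level separated the sorts, and the Tomato states overlapped within each sort. Cxcr5, the follicle-homing receptor used in the sort, stood at 360.2 and 258 RPKM in Tomato+ Tfh and 27.8 and 55.7 in Tomato+ non-Tfh cells, against 394 and 277 in Tomato- Tfh and 113 and 98.3 in Tomato- non-Tfh cells. Cxcr5 overlapped between Tomato states, with a log2 fold change of -0.72 ± 0.31 (SE, adjusted p = 0.515). Pdcd1, which encodes the other sort marker PD-1, stood at 656 and 542 RPKM in Tomato+ Tfh and 133 and 183 in Tomato+ non-Tfh cells, against 715 and 547 in Tomato- Tfh and 89.9 and 132 in Tomato- non-Tfh cells. Pdcd1 overlapped between Tomato states, with a log2 fold change of 0.22 ± 0.21 (SE, adjusted p = 0.9). The Tomato states of Cxcr5 overlapped in the Tfh sort and were apart in the non-Tfh sort, where both Tomato+ libraries were lower; those of Pdcd1 overlapped in the Tfh sort and were just apart in the non-Tfh sort, where both Tomato+ libraries were higher. A p that misses the threshold does not show that the levels are equal.

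Another 3 genes of the follicular list came nearest to the edgeR threshold. Tox, a chromatin factor that supports Tfh development in mice, stood at 103 and 128 RPKM in Tomato+ Tfh and 29.5 and 18.8 in Tomato+ non-Tfh cells, against 207 and 171 in Tomato- Tfh and 51.04 and 46.2 in Tomato- non-Tfh cells. Tox was separate within each sort and overlapped across sorts, with a log2 fold change of -0.86 ± 0.18 (SE, adjusted p = 0.113). Id3, an E protein inhibitor, stood at 67.4 and 72.4 RPKM in Tomato+ Tfh and 30.8 and 31.6 in Tomato+ non-Tfh cells, against 155 and 108 in Tomato- Tfh and 134 and 70.3 in Tomato- non-Tfh cells. Id3 was separate within each sort and overlapped across sorts, with a log2 fold change of -1.30 ± 0.29 (SE, adjusted p = 0.143). Btla, an inhibitory receptor, had 10.7 to 33.8 RPKM in the Tomato+ libraries and 24.6 to 54.1 RPKM in the Tomato- libraries (log2 fold change -0.95 ± 0.23 (SE), adjusted p = 0.205). Each was lower in Tomato+ than in Tomato- cells of the same sort without overlap, and none was called in any of the 8 edgeR fits with 1 library left out. Of 15 naive and central memory genes none passed by edgeR, 3 had an unadjusted p under 0.05, 12 were negative and the median was -0.35. DESeq2 called 3 of the 15 lower, Tcf7 among them, and limma called none. Tcf7, the factor TCF-1 of naive, memory and follicular cells, stood at 362 and 376 RPKM in Tomato+ Tfh and 149 and 196 in Tomato+ non-Tfh cells, against 517 and 458 in Tomato- Tfh and 310.0 and 361 in Tomato- non-Tfh cells. Tcf7 was separate within each sort and overlapped across sorts, with a log2 fold change of -0.67 ± 0.16 (SE, adjusted p = 0.175).

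By edgeR no member passed among 10 regulatory T cell genes (median 0.31), 12 Th2 and Th17 genes (-0.34), 7 inhibitory receptor genes (0.097), 17 type I interferon response genes (-0.49), 15 interferon gamma response genes (0.090), 16 glycolysis genes (0.24) or 17 cholesterol synthesis genes (0.44). In the order given, 1, 3, 1, 2, 1, 2 and 1 of them had an unadjusted p under 0.05. Among the Th2 and Th17, inhibitory receptor and glycolysis genes, DESeq2 called Rora, Havcr2 and Slc2a3 higher and Il22 and Ccr6 lower, and it called none of the regulatory T cell or interferon response genes. Limma on log2(RPKM + 1) called Havcr2 and Slc2a3 higher, and limma on log2(RPKM + 0.1) called none of these lists' members. Havcr2, which encodes the inhibitory receptor TIM-3, had 18.2 to 35.3 RPKM in the Tomato+ libraries and 2.09 to 8.51 RPKM in the Tomato- libraries without overlap (log2 fold change 2.46 ± 0.50 (SE), adjusted p = 0.112). Havcr2 passed in edgeR without Tomato- Tfh replicate 2 (adjusted p = 0.043) and in none of the other 7 such fits. Ccr6, a receptor of Th17 cells, had 8.68 to 61.4 RPKM in the Tomato+ libraries and 35.9 to 128 RPKM in the Tomato- libraries (log2 fold change -1.61 ± 0.37 (SE), adjusted p = 0.174). Ccr6 was lower in Tomato+ cells without overlap within each sort and overlapped across sorts. With 1 library left out, its log2 fold change in edgeR ran from -2.05 to -1.47. Foxp3, the regulatory T cell factor, had 1.35 to 23.1 RPKM in the Tomato+ libraries and 1.53 to 15.7 RPKM in the Tomato- libraries (log2 fold change 1.09 ± 0.49 (SE), adjusted p = 0.54). The Tomato states of Foxp3 overlapped in the Tfh sort and were apart in the non-Tfh sort, where both Tomato+ libraries were higher.

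Genes lower in Tomato+ cells were led by transcripts of antigen-presenting and myeloid cells: 8 of the 11 falling genes are on the MHC class II, macrophage, neutrophil or dendritic cell lists. Of the 11746 genes tested, these lists hold 10, 18, 9 and 7 in that order. They were chosen with earlier results of these data known. Of 10 MHC class II genes tested, 4 fell, none rose and all were negative (median -1.55). H2-Ab1, a class II beta chain, stood at 268 and 248 RPKM in Tomato+ Tfh and 263 and 187 in Tomato+ non-Tfh cells, against 961 and 577 in Tomato- Tfh and 1288 and 1084 in Tomato- non-Tfh cells. H2-Ab1 was thus separate in all 8 libraries, by a log2 fold change of -1.98 ± 0.23 (SE, adjusted p = 0.00616). H2-Eb1, another beta chain, stood at 108 and 57.8 RPKM in Tomato+ Tfh and 91.2 and 67.8 in Tomato+ non-Tfh cells, against 295 and 231 in Tomato- Tfh and 504 and 374 in Tomato- non-Tfh cells. Levels of H2-Eb1 did not overlap between Tomato states, with a log2 fold change of -2.06 ± 0.26 (SE, adjusted p = 0.0089). Both beta chain genes were highest in Tomato- non-Tfh cells. The alpha chain gene H2-Aa (-1.65 ± 0.27, adjusted p = 0.0372) and the invariant chain gene Cd74 (-1.45 ± 0.24, adjusted p = 0.0383) fell without overlap, in log2 units; each was called in 2 of 8 fits with 1 library left out, with adjusted p up to 0.108 for H2-Aa and 0.11 for Cd74.

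Of 18 macrophage and monocyte markers tested 2 fell, 17 were negative and the median was -2.42. Lyz2, the lysozyme of macrophages and neutrophils, stood at 244 and 199 RPKM in Tomato+ Tfh and 105 and 63.9 in Tomato+ non-Tfh cells, against 666 and 827 in Tomato- Tfh and 948 and 898 in Tomato- non-Tfh cells. Lyz2 was lower in each Tomato+ library than in any Tomato- library, and the log2 fold change was -2.60 ± 0.35 (SE, adjusted p = 0.0114). Ctss, cathepsin S, stood at 131 and 118 RPKM in Tomato+ Tfh and 101 and 112 in Tomato+ non-Tfh cells, against 204 and 266 in Tomato- Tfh and 228 and 241 in Tomato- non-Tfh cells (log2 fold change -1.01 ± 0.15 (SE), adjusted p = 0.0225) and was called in 2 of the 8 fits with 1 library left out (adjusted p 0.0225 to 0.0821). Ctss did not overlap. Among 9 neutrophil markers tested 1 fell, Il1b, which encodes interleukin 1 beta and is also made by macrophages. Il1b stood at 0.306 and 0.645 RPKM in Tomato+ Tfh and 0.227 and 0.337 in Tomato+ non-Tfh cells, against 27.7 and 82.8 in Tomato- Tfh and 52.3 and 88.8 in Tomato- non-Tfh cells. Il1b was thus separate in all 8 libraries, by a log2 fold change of -7.38 ± 0.61 (SE, adjusted p = 0.0023). The 4 Tomato+ libraries were near 0 (50 reads in all) and the Tomato- libraries well above (7819 reads).

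Cd209a, a lectin of dendritic cells, stood at 0.0497 and 0.0577 RPKM in Tomato+ Tfh and 0.0869 and 0.0502 in Tomato+ non-Tfh cells, against 6.02 and 6.59 in Tomato- Tfh and 40.5 and 13.2 in Tomato- non-Tfh cells. Levels of Cd209a did not overlap between Tomato states, with a log2 fold change of -7.69 ± 0.96 (SE, adjusted p = 0.00808). It was lost without Tomato- non-Tfh replicate 1 (adjusted p = 0.0855). Emilin2, an extracellular matrix glycoprotein, stood at 0.0377 and 0.0766 RPKM in Tomato+ Tfh and 0.0440 and 0.0191 in Tomato+ non-Tfh cells, against 6.16 and 8.79 in Tomato- Tfh and 7.53 and 11.5 in Tomato- non-Tfh cells. Emilin2 was lower in each Tomato+ library than in any Tomato- library, and the log2 fold change was -7.58 ± 0.78 (SE, adjusted p = 0.00382). Igsf6, an immunoglobulin superfamily member, stood at 0.0864 and 0.0401 RPKM in Tomato+ Tfh and 0.0201 and 0.0175 in Tomato+ non-Tfh cells, against 2.68 and 19.3 in Tomato- Tfh and 8.28 and 12.2 in Tomato- non-Tfh cells (log2 fold change -8.06 ± 1.13 (SE), adjusted p = 0.016) and was called in 4 of the 8 fits with 1 library left out (adjusted p 0.00783 to 0.0984). All 3 were near 0 in the Tomato+ libraries, so the size of the folds is imprecise.

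The marker lists of other cell types hold some of these falling genes, so their sums are no separate evidence. Over the 8 libraries, Lyz2 made up 51% of the macrophage sum, Cd209a 46.2% of the dendritic cell sum and Cd74 36.2% of the MHC class II sum. The summed macrophage, dendritic cell and MHC class II lists were lower in each Tomato+ library than in any Tomato- library, as given above. The mean of Tomato+ cells was the lower one for 17 of 18 macrophage and monocyte markers, 7 of 8 dendritic cell markers, 10 of 10 MHC class II genes and 10 of 13 neutrophil markers. Neutrophil markers summed to 1.66 to 101 RPKM in the Tomato+ libraries and 38.03 to 559 RPKM in the Tomato- libraries, with Mpo and Elane at 0 in all 8 libraries, and were highest in the replicate 2 libraries of both Tomato- groups. S100a8, a neutrophil gene, stood at 0.658 and 1.86 RPKM in Tomato+ Tfh and 68.3 and 0.666 in Tomato+ non-Tfh cells, against 9.69 and 299.9 in Tomato- Tfh and 0.945 and 263 in Tomato- non-Tfh cells and was not called (log2 fold change -4.34 ± 2.26 (SE), adjusted p = 0.631). The part of such cells in the 11 falls was not tested. Without both Tomato- replicate 2 libraries, 37 genes were called (31 higher and 6 lower), and 31 of the 50 calls were among them, 25 rises and 6 falls. Plasma cell markers summed to 83.2 to 220.5 RPKM in the Tomato+ libraries and 18.8 to 54.3 RPKM in the Tomato- libraries and were higher in Tomato+ libraries without overlap. Igj, the antibody joining chain gene, carried most of that sum and was not called in the additive edgeR fit (log2 fold change 1.79 ± 0.37 (SE), adjusted p = 0.112). DESeq2 and limma on log2(RPKM + 1) called Igj higher, and edgeR did so without Tomato- Tfh replicate 2 (adjusted p = 0.037) and in none of the other 7 such fits. The plasma cell sum does not include 2010001M09Rik (Mzb1), whose called rise went with it. The part of plasma cells in that rise was not tested.

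**Figure D4:**
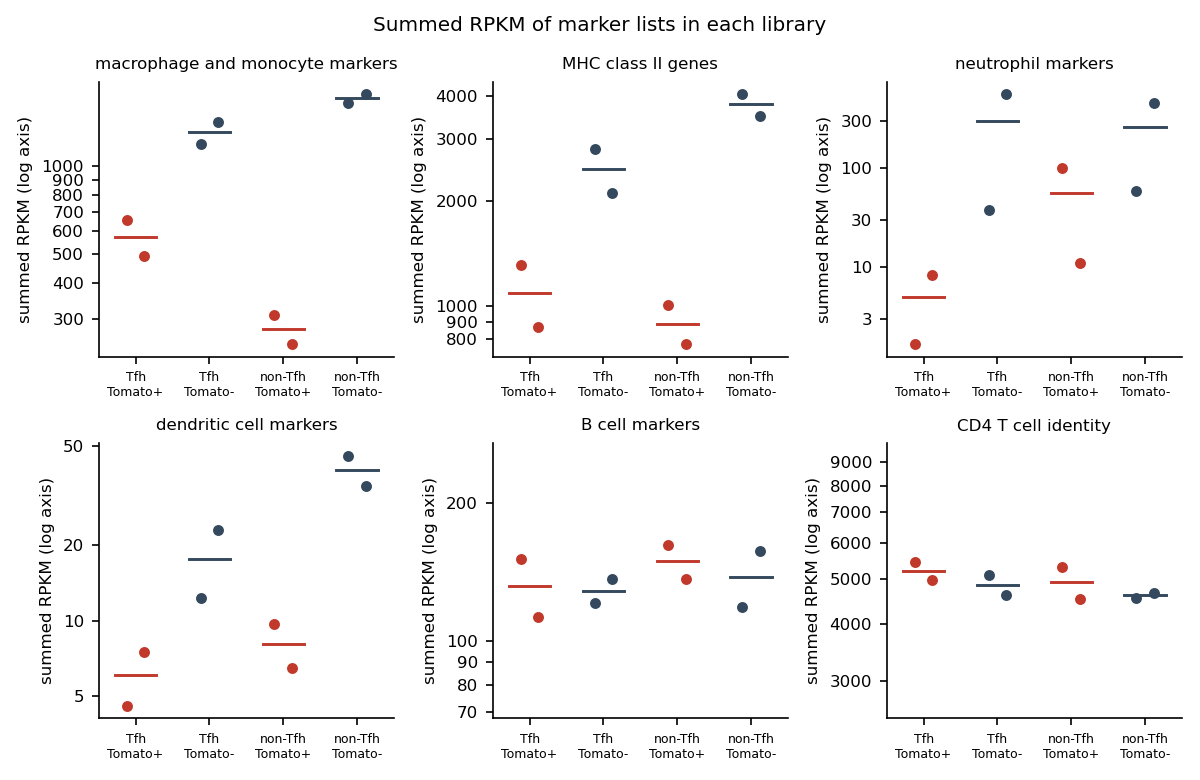
Summed RPKM (log axes that differ between panels) of 6 marker lists in each library, by sort and Tomato state; points are libraries and lines the mean of 2 replicates. Macrophage, MHC class II and dendritic cell sums lie lower in all 4 Tomato+ libraries, and B cell and CD4 T cell sums overlap.

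Most rising genes followed a shared ranking of the 4 groups. By mean RPKM, 31 of the 39 ran Tomato+ non-Tfh, Tomato+ Tfh, Tomato- non-Tfh, Tomato- Tfh from high to low, 38 were highest in Tomato+ non-Tfh cells and 34 were lowest in Tomato- Tfh cells. The 39 were called for higher levels in Tomato+ cells, which by itself favours ranks with both Tomato+ groups on top. Such shares were not computed over all genes tested. For 30 of the 39, both Tomato+ Tfh libraries stood above both Tomato- non-Tfh libraries. For the other 9 they did not: Id2, Selplg, Cish, Ccr2, S100a6, Emp3, Anxa6, Dusp5 and Ms4a4b. In Selplg and Anxa6, for example, both Tomato+ Tfh libraries stood below both Tomato- non-Tfh libraries. The log2 fold change was larger in non-Tfh cells for 21 of the 39.

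Whether the Tomato difference itself differs between sorts was tested by the interaction term. No gene passed after adjustment in edgeR (0%), with 747 genes (6.36%) at an unadjusted p under 0.05 and a smallest adjusted p of 0.677, while DESeq2 called 174 (1.48%). Among the 50 common calls, 9 had an unadjusted interaction p under 0.05 and the smallest adjusted p was 0.774. With 4 residual degrees of freedom, this does not show that the 2 sorts responded alike. The 6 genes with the smallest interaction p were Emp1, Abhd4, S1pr1, Apoe, Tmem38b and Mmachc. S1pr1, the receptor for egress from lymph nodes, stood at 69.1 and 65.5 RPKM in Tomato+ Tfh and 150.2 and 121 in Tomato+ non-Tfh cells, against 41.2 and 37.6 in Tomato- Tfh and 239 and 247 in Tomato- non-Tfh cells. It was higher in Tomato+ than Tomato- Tfh cells and lower in Tomato+ than Tomato- non-Tfh cells (log2 fold change 0.76 in Tfh and -0.82 in non-Tfh cells, interaction adjusted p = 0.677). Of all genes tested, 555 (4.73%) had non-overlapping replicates in opposite directions in the 2 sorts. Emp1, a membrane protein gene, stood at 7.38 and 16.1 RPKM in Tomato+ Tfh and 26.2 and 25.1 in Tomato+ non-Tfh cells, against 0.0629 and 0.0716 in Tomato- Tfh and 9.89 and 8.29 in Tomato- non-Tfh cells. Apoe, an apolipoprotein gene of macrophages, stood at 177 and 96.04 RPKM in Tomato+ Tfh and 42.7 and 32.5 in Tomato+ non-Tfh cells, against 153 and 119 in Tomato- Tfh and 255 and 351 in Tomato- non-Tfh cells. Emp1 was nearly absent in Tomato- Tfh cells alone, and Apoe overlapped in the Tfh sort and was lower in Tomato+ cells of the non-Tfh sort.

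**Figure D5:**
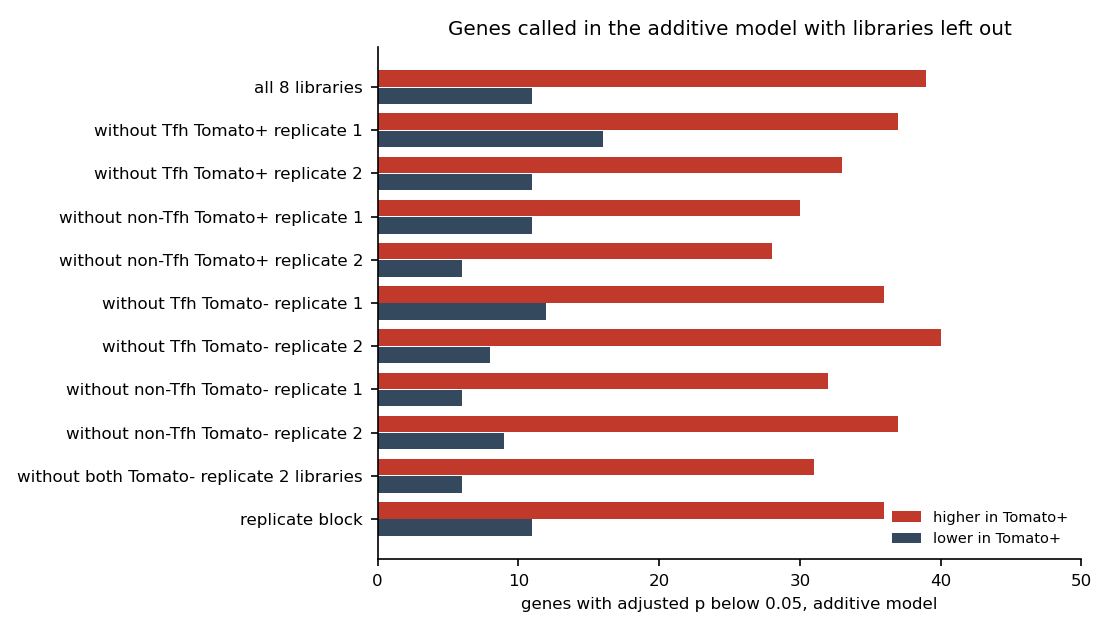
Number of genes with adjusted p below 0.05 in the additive model (horizontal axis, from 0), higher (red) or lower (dark blue) in Tomato+ cells, with all 8 libraries, with each library left out, without both Tomato- replicate 2 libraries and with replicate number as a block. All 8 libraries gave 39 and 11, and leaving out 1 library gave 34 to 53 calls in all.

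Leaving out 1 library in turn kept 34 to 43 of the 50 calls. The fewest were kept without Tomato+ non-Tfh replicate 2, where 34 genes were called, and the most without Tomato+ Tfh replicate 1, where 53 were called. The calls lost numbered 7 without Tomato+ Tfh replicate 1, 12 without Tomato+ Tfh replicate 2, 14 without Tomato+ non-Tfh replicate 1 and 16 without Tomato+ non-Tfh replicate 2. They numbered 9 without either Tomato- Tfh library or Tomato- non-Tfh replicate 2 and 13 without Tomato- non-Tfh replicate 1. Of the 39 rises, 27 were called in all 8 such fits and 12 were lost in at least 1. Of the 11 falls, 5 were called in all 8 (Il1b, Emilin2, Lyz2, H2-Ab1 and H2-Eb1) and 6 were lost in at least 1.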

How the data were processed

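Polyadenylated RNA was sequenced from 8 sorted lymph node samples, 2 in each of 4 groups, assigned from their labels. The deposited tables give, for each of 29257 transcript rows, a read count and an RPKM value made by the authors. CASAVA 2.18, Bowtie2, SICER 1.1, edgeR and the build mm9 are named in the submitters' processing notes, with no role or order; rules on strand and multi-mapping are not given in the sources used here.

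For each of 22878 gene symbols the row with most reads was kept (13169625 to 20225695 counts per library). Deposited counts were tested with edgeR 4.0.16 (R 4.3.3): filterByExpr, TMM scaling, a model of sort plus Tomato state, a quasi-likelihood F test and Benjamini-Hochberg adjustment over 11746 genes. Standard errors are the log2 fold change divided by the square root of F. Within-sort contrasts and the interaction came from a fit with 1 mean per group. RPKM values, as the authors deposited them, give the levels. Figures used matplotlib 3.10.9. Alternatives used DESeq2 1.42.0, limma 3.58.1, other filters and scalings, summed rows, a replicate block and left-out libraries.

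Gene lists and members were chosen with earlier results of these data known. Genes named are Tbx21, Ifng, Bcl6, Cxcr5 and Pdcd1; the 10 largest rises and falls among called genes without overlap at 5 RPKM or more; called list members; the 3 lowest adjusted p-values in each list; the 6 smallest interaction p-values; and Lyz2, S100a8, H2-Ab1 and Cd79a. Other genes, such as members called by DESeq2 or limma alone, were named after their values were seen. Not every gene meeting the list rule is given with its values. Spleen RNA and DNase libraries were not used here.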

Additional observations from a re-analysis of the deposited data

How the results depend on the processing

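The additive count of 50 calls was 521 with DESeq2, 116 with limma on log2(RPKM + 1), 20 without the sort covariate, 77 with averaged within-sort contrasts, 0 in the Tfh libraries alone by edgeR (731 at an unadjusted p under 0.05) and 3 in the non-Tfh libraries alone (988 at an unadjusted p under 0.05). It was 42 to 73 with no filter or one of 5 RPKM, limma with a pseudocount of 0.1, robust estimation, summed rows and median-of-ratios scaling, and 37 without both Tomato- replicate 2 libraries. Leaving out 1 library gave 34 to 53. The interaction count of 0 was 174 with DESeq2 and 0 in each other alternative run. The 13 Tfh calls were 272 with DESeq2, 26 with no filter, 20 with the 5 RPKM filter, 0 without both Tomato- replicate 2 libraries and 2 to 18 with 1 library left out. The 39 non-Tfh calls were 565 with DESeq2, 67 with no filter, 6 without both Tomato- replicate 2 libraries and 5 to 46 with 1 library left out. Fewer samples or genes are part of some of these settings; the cause of the other shifts was not tested. Of the genes recomputed that the additive edgeR fit did not call, Ifng, Il18rap, Fasl, Dusp2 and Igj passed with no filter, Ifng, Il18rap and Ccl1 with the 5 RPKM filter, and Ifng, Il18rap, Fasl, Csf2, Havcr2, Dusp2 and Emp1 with averaged contrasts. No called gene changed sign under any alternative run. Pdcd1 had a log2 fold change of -0.095 in the Tfh libraries alone, the only reversal among the genes recomputed under each setting. The lone library left in a group by a leave-one-out fit was assumed to vary like the others.

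Replicate numbers are shared between groups, but nothing says that they pair libraries, and same-numbered deviations from group means correlated by -0.013 to 0.028. With the replicate block 47 genes were called, 46 of them among the 50, and the non-Tfh contrast called 22. The calls of Ccr2, Emp3, Ms4a4b and 2010001M09Rik were not made there (adjusted p 0.0508 to 0.0806), and Igj was called (adjusted p = 0.0154, against 0.112 without the block). With 2 replicates a group, no check of whether a library correlates best with its own number was made.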

Other observations

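The within-sort contrasts called 15 genes that the additive model did not, 2 in Tfh and 13 in non-Tfh cells. Of these, Slamf1, Tnf, Klrg1, Smtn, Galnt6, Pdk1, Plbd1 and Cybb lie outside the naming rule and were chosen after their values were seen. In Tfh cells these were Il18rap and Emp1. In non-Tfh cells 6 were higher in Tomato+ cells: Ifng, Dusp2, Slamf1, Tnf, Klrg1 and Abhd4. Slamf1 encodes a self-binding receptor, Tnf the cytokine tumour necrosis factor and Klrg1 a receptor of terminally differentiated effector cells. Tnf had 263 and 344 RPKM in Tomato+ and 53.6 and 71.2 RPKM in Tomato- non-Tfh cells (log2 fold change 2.31 ± 0.25, adjusted p = 0.0216). Klrg1 had 35.4 and 52.4 RPKM in Tomato+ and 0.151 and 0.116 RPKM in Tomato- non-Tfh cells (log2 fold change 8.35 ± 1.13, adjusted p = 0.0313). Slamf1 had 75.2 and 69.6 RPKM in Tomato+ and 18.2 and 15.3 RPKM in Tomato- non-Tfh cells (log2 fold change 2.14 ± 0.28, adjusted p = 0.0313). The replicates of these 3 genes did not overlap in the non-Tfh sort. Another 7 were lower there: Smtn, Galnt6, Pdk1, Plbd1, Cybb, Apoe and Tmem38b. Cybb encodes the phagocyte oxidase subunit, and Pdk1 a kinase that restrains pyruvate oxidation. Cybb had 1.85 and 1.87 RPKM in Tomato+ and 17.3 and 44.8 RPKM in Tomato- non-Tfh cells (log2 fold change -4.04 ± 0.59, adjusted p = 0.0371). None of the 15 passed the edgeR test of a difference between the sorts, so by edgeR their calls are not shown to belong to a single sort. DESeq2 called 174 genes for such a difference, and which of the 15 are among them is not given here.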
